A study of Mus musculus with 72 samples.

Results

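The genes described here encode the protein components of the cytosolic ribosome. They were chosen by symbol: every Rpl or Rps symbol with a plain protein number, Rpsa and the acidic stalk genes Rplp0, Rplp1 and Rplp2, without the Rps6k kinases and without symbols that mark a pseudogene. Of 24091 genes in the liver or the suprachiasmatic nucleus (SCN) table, 80 met the rule, 48 of the large subunit and 32 of the small subunit. All 80 were in the liver table of 22823 genes and 79, without Rpl32l, in the SCN table of 15759 genes. Every one passed the filter on low counts. The study measured poly(A) RNA of C57BL/6 mice, bought as C57BL/6J at 8 to 12 weeks of age, after 11 days on a methionine/choline deficient (MCD) diet or on its isocaloric control diet, both eaten freely. The mice lived singly in light and dark for 10 days and in constant darkness on the last day, when 1 set was killed every 4 h from circadian time (CT) 0 to CT20. Each of the 12 groups of diet and time held 3 mice, labelled 2 males and 1 female, in each tissue, which gives 36 liver and 36 SCN libraries. Liver was a piece of the left lobe, and SCN was cut by laser from brain sections. The protocol text names male mice only, whereas Eif2s3x, an X-linked gene known to escape X inactivation, was higher in the libraries labelled female in liver (log2 difference 0.60, adjusted p = 4.48e-14) and in SCN (0.51, adjusted p = 2.22e-10), both from edgeR's quasi-likelihood test.

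A ribosome joins a large and a small subunit, each built from ribosomal RNA and from ribosomal proteins that are needed in about equal numbers. Liver spends much of its amino acid supply on making proteins for the blood. Ribosomal protein mRNAs in mammals are known for a 5′ terminal run of pyrimidines, the TOP motif, through which growth and nutrient signals of the mTORC1 pathway control their translation. Methionine starts every protein, and it and choline feed the methyl donor cycle. The SCN is the paired nucleus of the hypothalamus that holds the central circadian clock.

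RefSeq start site windows on build GRCm38.p6 were found for 58 members, 69 windows in all, each from 250 bases before to 50 bases after a start. The 30 bases around the start, 15 on either side, are printed for the members that lead the comparisons below, with the longest run of C and T letters that meets the 10 bases on either side of the start in capitals. Rps15a and Rpl13 had the rhythm on MCD diet described below. Rpl35a had the largest decrease and Rpl41 the largest increase on MCD diet. Rpl36a and Rpl5 differed in rhythm between diets, and Rps24 led the exon comparison between tissues.
Rps15a: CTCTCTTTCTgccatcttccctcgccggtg
Rpl13: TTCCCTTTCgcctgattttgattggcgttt
Rpl35a: gcggggcttgCCTTCCTCTTTCCgccatct
Rps24: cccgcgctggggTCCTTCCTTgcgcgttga
Rpl36a: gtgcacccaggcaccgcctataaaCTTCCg
Rpl5: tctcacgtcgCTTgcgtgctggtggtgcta
Rpl41: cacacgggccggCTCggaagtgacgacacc
These windows lie at chr7:118116133-118116162 on the minus strand for Rps15a and chr10:128549154-128549183 on the minus strand for Rpl41. On the plus strand they lie at chr8:123102335-123102364 for Rpl13, chr16:33056467-33056496 for Rpl35a, chr14:24490663-24490692 for Rps24, chrX:134585639-134585668 for Rpl36a and chr5:107900513-107900542 for Rpl5. Rpl35a also has windows at chr16:33056438-33056467 and chr16:33056499-33056528, not printed, whose longest runs are 4 and 5 letters against 13 in the printed one. A run of at least 7 C or T letters meeting those 20 bases was present in 34 of the 69 member windows, 49.3%, against 19.7% of all 32851 windows. The letters CCGGAAG of an ETS site, on either strand, were in 36.2% of the member windows and 8.86% of all windows, and AAGATGGC, a YY1 site, in 10.1% and 2.75%. The E-box CACGTG was in 11.6% of member windows and 7.15% of all, TATAAA in 10.1% and 13.6%, and CCAAT in 31.9% and 37.4%. The D-box letters TTATGTAA and the amino acid response letters TGATGCAA were in 0 of 69 member windows and in 0.938% and 0.895% of all windows. None of these letter strings contains another.

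Library depth ranged from 52.6 to 86.7 M counts (M, mega) in liver and from 23.4 to 79.8 M in SCN. Members took 0.72% to 1.31% of the counts of a liver library, with a median of 0.81%, and 1.72% to 3.22% of an SCN library, with a median of 2.27%. The mitochondrially encoded gene mt-Nd6 split the liver libraries into a low and a high kind. It was at 41.6 to 118.9 CPM (counts scaled to the library total here and, in all values that follow, to the total times edgeR's TMM factor) in 21 libraries and at 414.1 to 924.6 CPM in 15. The high kind made up 10 of the 18 control and 5 of the 18 MCD libraries. One male control liver of CT08, with 86.2 M counts, stood apart in its scaling factor (1.18, the highest of the control libraries, against a control median of 0.89). A pair of control columns of CT08 carries 1 header, so these male libraries are known by group and not by number. Hepatocyte markers such as Alb and Ttr summed to at least 59240 CPM in every liver library, and the 10 SCN neuron markers, Avp and Vip among them, summed to 2088 to 4708 CPM in the SCN libraries.

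Levels were compared between members per kilobase of exon, as CPM on the scale of edgeR's TMM factors divided by the length of the shortest consensus transcript. In control liver Rplp1, an acidic stalk protein that binds elongation factors, was highest (476 ± 37.0 CPM per kilobase, SD, n = 18), followed by Rpl41 (365 ± 27.7), Rps24 (342 ± 33.6), Rpl4 (291 ± 22.9) and Rps15 (289 ± 25.6). Rpl4 and Rps15 lay within 1 SD of each other, as did Rpl41 and Rps24. In control SCN Rpl41 (1380 ± 245) and Rps24 (1373 ± 222) led and did not differ beyond their spread, and Rps27 (1030 ± 240.5), Rps15 (1028 ± 156) and Rplp1 (940 ± 159) followed. At the low end of liver stood Rpl32l (1.47 ± 0.37), Rpl17 (12.8 ± 0.78), Rps4l (17.3 ± 4.81), Rps20 (24.4 ± 1.16) and Rpl6l (30.1 ± 3.93). The low end of SCN held Rps20 (40.2 ± 5.44), Rps27l (40.4 ± 6.28), Rps4l (56.1 ± 7.90), Rpl6l (100.1 ± 12.5) and Rpl17 (113 ± 22.8). Rpl32l drew 21 to 66 counts in a liver library, 0.59 ± 0.15 CPM on control, where Rpl32 stood at 121 ± 8.39 CPM. The consensus transcript of Rps20 is a long one, which lowers its value per kilobase, and members with processed copies elsewhere in the genome can lose or gain reads to them.

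On the MCD diet most liver members that changed were lower than on control by a modest amount, on the scale of the median gene. Of the 80 members, 44 passed the test (edgeR's quasi-likelihood test, Benjamini-Hochberg adjusted p under 0.05 over 20249 genes, called below), where 46.6% of all genes tested did. Of these, 37 were lower, against 21.2% of all genes, and 7 were higher, against 25.3%. The median log2 difference, MCD minus control, was -0.07 for the members and 0.02 for all genes. The large subunit had 29 of 48 members called with a median of -0.09, and the small subunit 15 of 32 with a median of -0.06. The direction depends on the scaling: with library totals in place of TMM factors 56 members were called higher and 0 lower, beside 52.5% and 7.61% of all genes. The median gene then stood at 0.27 and the median member at 0.19. Relative to the median gene the members stood at -0.09 on the TMM scale and -0.08 on the total scale, and 62 of the 80 lay below the median gene on both.

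Rpl35a, a large subunit protein whose loss in people causes Diamond-Blackfan anaemia, had the largest decrease. Its level over the 18 control livers ran from 44.2 CPM over a median of 56.4 to 70.6, and over the 18 MCD livers from 34.9 over 45.0 to 63.1. The diet groups overlapped over all times, but at CT20 the control livers were at 45.0, 61.5 and 69.0 and the MCD livers at 36.1, 39.2 and 44.8, with no overlap. The log2 difference over all times was -0.35 ± 0.05 (SE, adjusted p = 2.01e-06), and the fitted difference was below 0 at all 6 times. Rpl27a (-0.27 ± 0.05, adjusted p = 6.21e-05), Rpl30 (-0.25 ± 0.06, adjusted p = 0.0013), the X-linked Rpl36a (-0.25 ± 0.04, adjusted p = 1.93e-06), Rpl7 (-0.24 ± 0.04, adjusted p = 6.1e-06) and Rps27a, made as a fusion with ubiquitin (-0.23 ± 0.08, adjusted p = 0.0129), each had a fitted log2 difference below 0 at 5 of 6 times. With library totals Rpl30, Rpl36a, Rpl7 and Rps27a came out at 0.01, 0.01, 0.02 and 0.03, on the other side of 0.

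Rpl41, a very short peptide at the bridge between subunits, had the largest increase. It ran from 141.7 CPM over a median of 160.3 to 183.5 in control livers and from 153.6 over 185.2 to 224.0 in MCD livers. At CT12 the 3 MCD livers, at 169.5, 206.4 and 224.0, all lay above the control livers, at 146.7, 149.1 and 155.2. Its log2 difference was 0.22 ± 0.04 (adjusted p = 6.18e-05), with fitted differences above 0 at 6 of 6 times. Among the other members called higher were Rpl12, at the base of the stalk (0.20 ± 0.05, adjusted p = 0.000783), Rpl10a, of the L1 stalk (0.18 ± 0.03, adjusted p = 8.98e-05), Rps12 (0.17 ± 0.05, adjusted p = 0.00251), Rps28 (0.17 ± 0.06, adjusted p = 0.0178) and Rpl29 (0.11). The stalk genes gave 0.07 ± 0.04 for Rplp0, 0.03 ± 0.04 for Rplp1 and 0.09 ± 0.05 for Rplp2, and none passed. Of the other X-linked members Rps4x (-0.15 ± 0.04), Rpl10 (-0.15 ± 0.04) and Rpl39 (-0.17 ± 0.05) were lower. Of the paralog pairs, Rps27l fell by 0.14 ± 0.04 (adjusted p = 0.00325, given on the log2 scale) and Rps27 stood at -0.02 ± 0.11, and Rps4l was at -0.24 ± 0.12 (adjusted p = 0.0966).

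**Figure D1:**
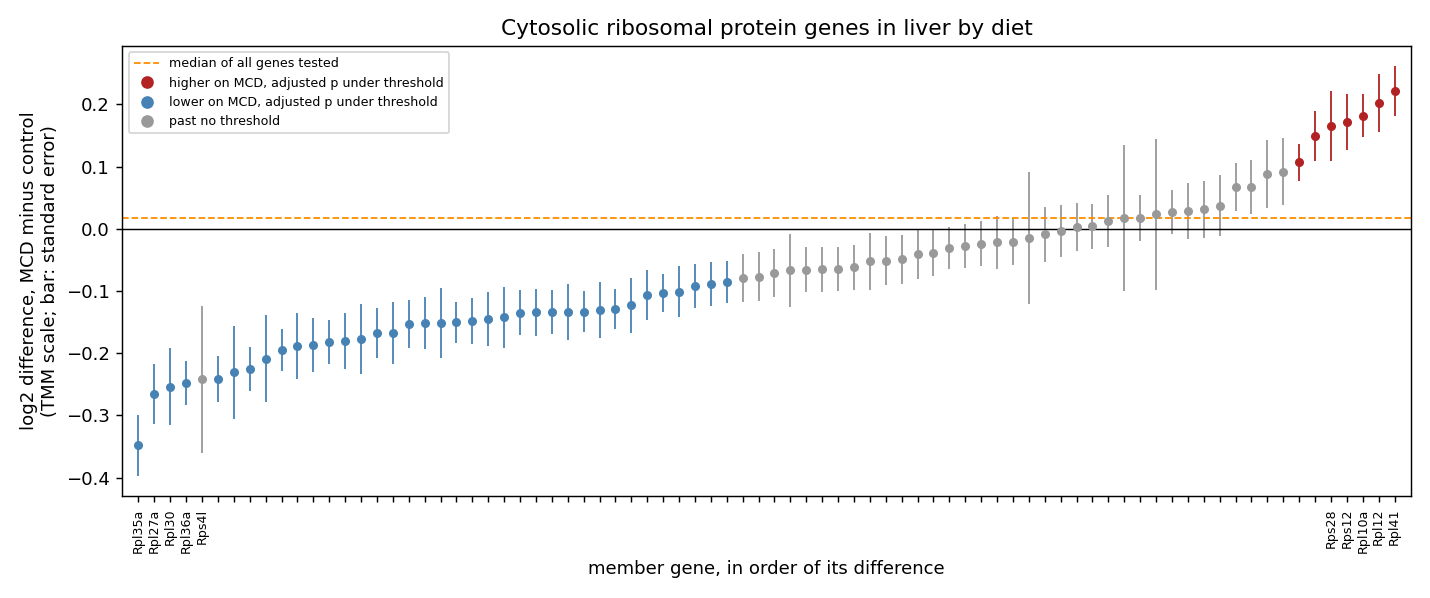
Log2 difference of each of the 80 members in liver, MCD minus control, on the TMM scale, in order of size, with the 5 at either end named on the axis; bars are standard errors, coloured points passed the test and the dashed line is the median of all genes tested. The 37 members called lower run down to -0.35 for Rpl35a and the 7 called higher up to 0.22 for Rpl41.

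Other values moved with diet in the same livers. Macrophage markers were called higher in 9 of 10 cases, where 25.3% of all genes were higher and 21.2% lower, and their summed level lay between 332.3 and 717.1 CPM (median 420.9) on control and between 452.1 and 920.7 CPM (median 599.7) on MCD. Of 8 hepatocyte markers 6 were called lower, with sums of 84520 to 124300 CPM (median 105900) on control and 59240 to 126300 CPM (median 103300) on MCD, and 4 of 6 erythroid markers were called lower, with medians of 272.6 and 142.9 CPM. Their part in the member differences was not tested. In tissue RNA fewer cells of a type and less RNA per cell cannot be told apart. Within the 21 libraries of the low mt-Nd6 kind 3 members were called higher and 5 lower for diet, beside 10.9% and 10.6% of all genes, with a member median of -0.04. Within the 15 of the high kind 0 were called higher and 11 lower, beside 13.3% and 11.3%, with a median of -0.09.

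The genes around the ribosome did not share one direction, and their counts stand beside 25.3% of all genes called higher and 21.2% called lower. The cytosolic ribosomal proteins with other kinds of symbol, 8 genes, held 4 lower and 0 higher, among them Rpl36al (-0.26), Rps3a1 (-0.20) and Fau (-0.17), with a median of -0.17. Of 16 elongation factors and other TOP genes 7 were lower and 1 higher, with a median of -0.08. The initiation factor subunit Eif3e (-0.30 ± 0.04) and the nascent chain factor Naca (-0.22 ± 0.04) were lower and Hnrnpa1 was higher (0.23 ± 0.05). Genes of rRNA processing and ribosome assembly went the other way, 31 of 55 higher and 3 lower with a median of 0.23, led by Rrp12 (0.67 ± 0.14), the snoRNP proteins Gar1 (0.65 ± 0.10) and Nop58 (0.59 ± 0.10), and the rRNA methyltransferase Nop2 (0.58 ± 0.09). RNA polymerase I and its factors gave 7 of 15 higher and 0 lower, with Taf1c at 0.93 ± 0.09. Of 14 rows of snoRNA host genes 10 were higher and 1 lower. Mitochondrial ribosomal proteins were mixed, 18 higher and 29 lower of 78. So were 28 genes of the mTORC1 pathway, 9 in each direction, with a median of -0.06. The mTORC1 inhibitors Ddit4 (1.29 ± 0.27) and Sesn2 (0.53 ± 0.10) and the translation repressor Eif4ebp1 (0.67 ± 0.07) were among the 9 higher, and the 9 lower are not named here. Inside the introns or exons of 29 members lie 56 annotated snoRNAs, which poly(A) libraries do not measure as such.

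Called members were most numerous at CT16 and CT20, in the subjective night, and there all were lower on MCD. Single times gave 7 called members for CT00 (12.6% of all genes) and 4 for CT04 (18.2%). CT08 gave 1 (1.3%) and CT12 gave 5 (15.2%), whereas CT16 gave 22 (12.5%) and CT20 gave 27 (11.3%). All 22 at CT16 and all 27 at CT20 were lower on MCD, beside 5.99% and 5.6% of all genes lower, with member medians of -0.22 and -0.26. All 5 at CT12, Rpl12, Rpl41, Rps12, Rpl10a and Rpl29, were higher, beside 8.08% of all genes higher, with a member median of 0.07. Rpl30 (-0.65 ± 0.15, adjusted p = 0.00597), Rpl3 (-0.55 ± 0.11, adjusted p = 0.00214), Rpl35a (-0.48 ± 0.12, adjusted p = 0.01) and Rpl36a (-0.44 ± 0.09, adjusted p = 0.00143) had the lowest values among the members called at CT16. With library totals the counts at CT16 and CT20 were 0, where 18.4% and 15.2% of all genes were called higher and 2.14% and 2.34% lower. At CT12 the count was then 64, all higher, beside 29.6% of all genes higher. At CT00 and CT04 it was 4 and 20, again all higher, beside 16.9% and 23.4% of all genes higher. Relative to the median gene, however, the member median was -0.25 at CT16 and -0.29 at CT20 under both scalings, with 76 of 80 members below the median gene at either time. At CT08 it was 0.12 on the TMM scale and 0.14 with totals, with 9 and 7 of 80 below it, but 0.03 without the deep control male of CT08. These single-time counts rest on 3 mice a group. As each of the 36 libraries was left out, the count ran from 2 to 11 at CT00, 0 to 5 at CT04, 0 to 1 at CT08 and 2 to 11 at CT12. At CT00 it was 2 without control male 2, the control female or MCD male 1 of CT00, 4 without control male 1 or the MCD female of CT00, and 11 without the deep control male of CT08. At CT04 it was 0 to 2 without any 1 of the 6 libraries of that time. At CT08 it was 0 without the less deep control male, the control female, MCD male 1 or the MCD female of CT08. At CT12 it was 2 or 3 without any 1 of the other libraries of that time, and 11 without the MCD female of CT12. The CT16 count fell to 6 without the MCD female of CT16 (5.52% of all genes), and to 8 and 11 without control males 1 and 2 of CT16 (6.06% and 8.03%). The CT20 count fell to 6 and 11 without control males 2 and 1 of CT20 (5.98% and 6.33%) and to 9 and 11 without MCD male 2 and the MCD female of CT20 (6.96% and 7.69%). At the lowest of these counts the members called were thus near the share of all genes, while their median relative to the median gene was -0.19 at CT16 and -0.25 at CT20. Leaving out all libraries of 1 replicate number lowered the count further, to as few as 1 at CT16 and 0 at CT20.

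Across the 24 h sampled, members in MCD livers followed a shared daily course that was not called in control livers. A 24 h cosine curve was called for 62 of 80 members on MCD, where 28.2% of all genes were, and for 1 on control, Rpl27, where 17.8% were (11 at an unadjusted p under 0.05 with edgeR, and 6 called with DESeq2). The called MCD members peaked between CT6.9 and CT11.2 with a median of CT9.3, and their fitted range from trough to peak was 0.22 to 0.80 on the log2 scale with a median of 0.37. All but 3 of the 80 fitted MCD curves peaked between CT6 and CT12, against 6 of the 80 control curves. The difference of the 2 rhythms was called for 14 members, beside 4.87% of all genes, and all 14 were among those called on MCD. Among them were Rpl5, Rpl36a, Rpl13, Rpl35, Rpl6, Rps4x, Rps7, Rpl7, Rpl3, Rps15a, Rpl12, Rps3 and Rps10.

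Rps15a, a small subunit protein, shows the pattern. In control livers the 3 values were 55.8, 57.7 and 63.5 CPM at CT12 and 47.2, 51.0 and 60.9 CPM at CT16. In MCD livers they were 53.8, 69.6 and 79.2 CPM at CT12, then 40.0, 41.0 and 49.0 CPM at CT16 and 43.4, 44.0 and 46.6 CPM at CT20. The 3 MCD values of CT12 all lay above those of CT16 and CT20, whereas the control values of CT12 and CT16 overlapped. Its fitted range was 0.54 on MCD (peak CT8.0, adjusted p = 0.000265) and 0.03 on control (adjusted p = 0.979), and the difference passed (adjusted p = 0.0427).

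Rpl3, which lines the peptidyl transferase centre, had the lowest adjusted p on MCD (0.000141), with a range of 0.57 and a peak at CT7.7. Its MCD values were 134.9, 167.8 and 183.9 CPM at CT12 and 90.3, 108.8 and 121.0 CPM at CT16, without overlap. Its control values were 157.4, 159.7 and 166.5 CPM at CT12 and 139.7, 151.5 and 175.4 CPM at CT16. Rpl5, which carries 5S rRNA into the large subunit, had the lowest adjusted p for a rhythm difference (0.0149), with a range of 0.34 on MCD and 0.11 on control. At CT20 its MCD values of 104.5, 114.5 and 123.9 CPM all lay below its control values of 124.8, 139.9 and 148.7 CPM. Rpl36a, also called for a difference (adjusted p = 0.0172), stood at 31.6, 31.7 and 33.7 CPM in the MCD livers of CT20 against 41.8, 45.0 and 48.0 CPM on control, and at 40.2, 47.2 and 49.1 CPM against 43.3, 44.1 and 44.5 CPM at CT12, where the groups overlapped.

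Rps23, at the decoding centre, had the largest fitted range on MCD (0.80, peak CT9.6, adjusted p = 0.00041), but its range on control was 0.34 with the same peak (adjusted p = 0.193) and the difference did not pass (adjusted p = 0.334). Rps10, at the mRNA entry, Rpl6 and Rpl13 had ranges of 0.46, 0.39 and 0.42 on MCD and of 0.10, 0.18 and 0.18 on control. Rpl27 was called on both diets, with 0.38 on control (peak CT13.8, adjusted p = 0.0053) and 0.33 on MCD (peak CT10.7, adjusted p = 0.00928). The sum of all members was 7683 ± 378 CPM (SD, n = 3) at CT00, 8734 ± 132 CPM at CT08, 9540 ± 1283 CPM at CT12 and 7421 ± 571 CPM at CT20 on MCD, whereas the control means stayed between 8021 and 8989 CPM. The MCD livers of CT12 stood apart, with the female at 8059 CPM and the males at 10260 and 10310 CPM. The female was also the 1 library of that group of the high mt-Nd6 kind, so sex and kind cannot be told apart there.

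**Figure D2:**
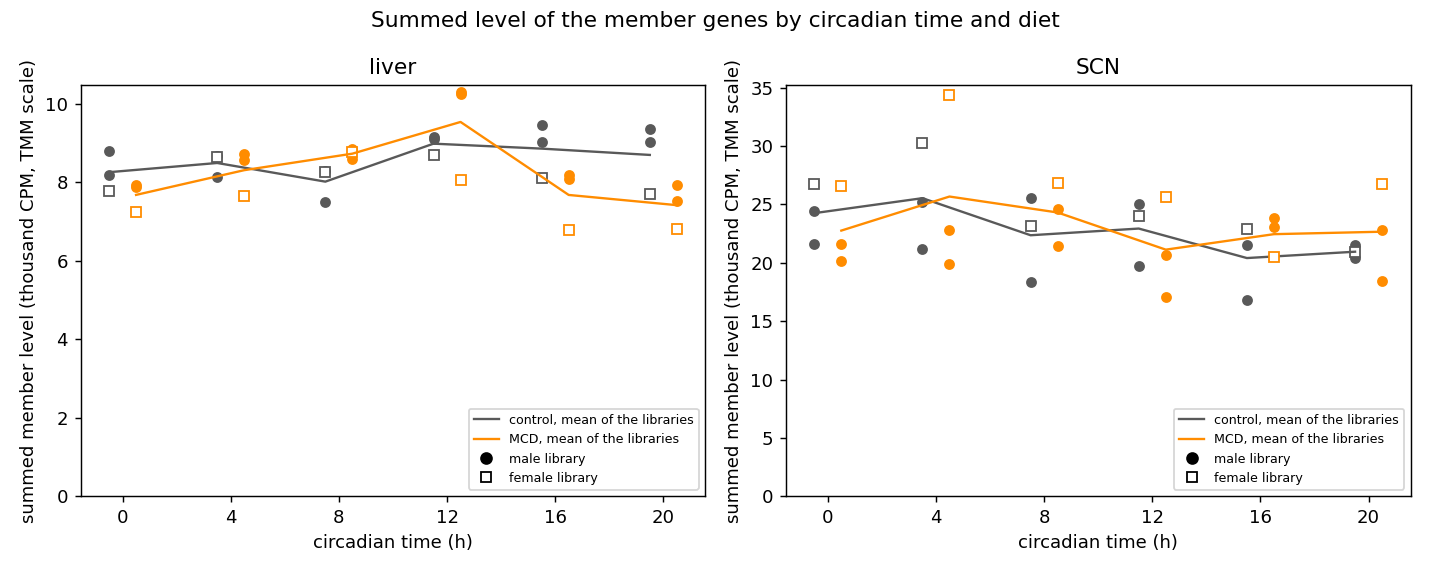
Summed level of all members in each library (CPM on the TMM scale of each tissue) by circadian time, with liver on the left and SCN on the right; filled circles are males, open squares females, and lines join the means of 3 libraries. The 2 MCD male livers of CT12 stand highest, and in SCN the females of CT04, at 34360 and 30260 CPM, stand highest.

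**Figure D3:**
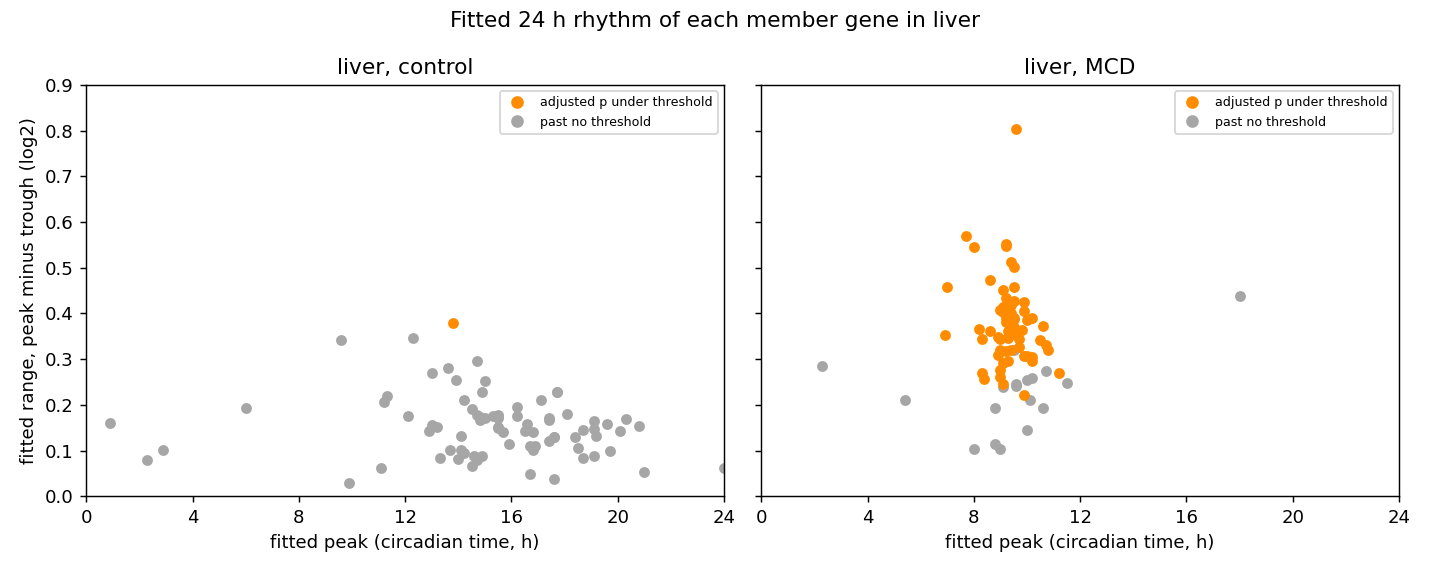
Fitted 24 h curve of each of the 80 liver members, with the peak time on the x axis (circadian time in h) and the range from trough to peak on the y axis (log2), control on the left and MCD on the right; orange points passed the test. On MCD 62 members passed with peaks between CT6.9 and CT11.2, and on control Rpl27 passed.

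The counts for rhythm moved with the setting, and the call of a difference was not stable. Library totals gave 55 members on MCD, 1 on control and 0 for the difference, beside 23.7%, 17.4% and 3.75% of all genes. A replicate block, fitted without the unnumbered control males of CT08, gave 0 for the difference as well. DESeq2 gave 68, 6 and 43, beside 32.4%, 22.5% and 9.96%. Without the females the counts were 46, 10 and 11, beside 18%, 14.3% and 2.66%. Without the males numbered 1 they were 20, 0 and 0, beside 12%, 2.76% and 0.0244%. Without those numbered 2 they were 11, 0 and 0, beside 13.2%, 6.17% and 0.0196%, so the MCD count was then near the share of all genes. As each of the 36 libraries was left out, the MCD count ran from 54 to 68, beside 23.9% to 30.2% of all genes, and the difference count from 3 to 29, beside 3.06% to 6.01%. It was 9 or fewer without any 1 of 11 libraries. These were the MCD female of CT08 (3), control male 2 or MCD male 2 of CT20 (4 each) and control male 1 of CT20 (5), control males 1 and 2 of CT12 (6 each), control male 1 of CT04 and of CT16 (7 each), control male 2 of CT04 and 1 control male of CT08 (8 each) and the MCD female of CT16 (9). It was 24 without the MCD female of CT12 and 29 without the control female of CT08. The control count reached 4 without the control female of CT04, 3 without the MCD female of CT12 or the deep control male of CT08, and 2 without control male 1 of CT04, the control females of CT08 and CT20 or MCD male 2 of CT12.

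Most elongation factors and other TOP genes were called for a rhythm on MCD as well. Of 16, 13 were called on MCD (28.2% of all genes) and 2 on control (17.8%), and 0 were called for a difference of the rhythms. Naca and the initiation factor Eif4b were the 2 called on control, and both were called on MCD too. Naca had a range of 0.47 with a peak at CT6.1 on MCD and of 0.26 with a peak at CT9.1 on control, and Eif4b a range of 0.57 at CT3.9 on MCD and of 0.64 at CT5.5 on control. Of the 8 further cytosolic ribosome proteins 4 were called on MCD and 1 on control, and those on MCD include Rack1 at CT9.5 and Rps3a1 at CT9.7. Against the same background shares, mitochondrial ribosomal proteins gave 30 of 78 on MCD and 12 on control. Ribosome assembly genes had fewer calls on MCD than on control, 20 and 24 of 55. Larp1, which binds TOP mRNAs, peaked at CT19.8 on MCD (range 0.83, adjusted p = 1.62e-08), and was called for a difference of the rhythms (adjusted p = 0.00447). Ddit4 was called on both diets, with a range of 2.87 and a peak at CT18.5 on MCD (adjusted p = 0.00105) and of 2.10 at CT17.8 on control (adjusted p = 0.0229).

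No SCN member was called for diet. With edgeR 0 of 79 were called over all times (0.0635% of all genes), 0 were at an unadjusted p under 0.05, and DESeq2 called 0 as well. Member log2 differences lay between -0.05 and 0.10 with a median of 0.01. Rpl35a stood at 0.04 ± 0.07 and Rpl41 at 0.01 ± 0.08. A difference of the diet effect between tissues, liver minus SCN, was called for 16 of 79 members in a fit of all 72 libraries, all 16 lower in liver, beside 15.8% of all genes in that direction and 18.9% in the other. Rpl22 (-0.21, adjusted p = 0.0225), Rps27a (-0.25, adjusted p = 0.0445) and Rps4x (-0.18, adjusted p = 0.0247) were among them. With library totals that term was called higher for 10 members and lower for 1, beside 35.2% and 7.19% of all genes, and relative to the median gene the members stood at -0.11 under both scalings.

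Few SCN members were called for a 24 h rhythm. On control 5 of 79 were, beside 15.1% of all genes, namely Rpl3 (range 0.40, peak CT6.3, adjusted p = 0.0143), Rps15a (0.31, CT5.3, adjusted p = 0.0159), Rpl15 (0.34, CT4.8, adjusted p = 0.0187), Rps2 (0.42, CT6.2, adjusted p = 0.0397) and Rplp0 (0.38, CT5.8, adjusted p = 0.0403). On MCD Rps15a (0.26, CT4.7, adjusted p = 0.0479) and Rpl15 (0.29, CT3.9, adjusted p = 0.0493) were, 2 of 79 beside 16.1% of all genes. For Rpl3 the control values were 667.2, 770.6 and 849.8 CPM at CT04 and 563.9, 570.4 and 581.7 CPM at CT20, without overlap. A rhythm difference between diets was called for 0 members (0.0127% of all genes, 0 members at an unadjusted p under 0.05 with edgeR). The counts moved with single libraries: the control count ran from 1 to 9 over the 36 refits, beside 11.4% to 16.6% of all genes, and moved by more than 1.5 times in 11 of them. The MCD count ran from 0 to 4, beside 12.6% to 18.5%, and did so in 29. The control count was 1 without the control female of CT04 or control male 1 of CT16, and 2 without 1 control male of CT08 or the control female of CT16. It was 3 without control male 2 of CT00 or CT04, control male 1 of CT12 or the control female of CT20, 8 without control male 2 of CT12, and 9 without control male 1 of CT04 or control male 2 of CT16.

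Libraries from females and males differed in opposite directions in the 2 tissues. Every female carries replicate number 3 and every numbered male 1 or 2, so sex and replicate number cannot be told apart. In SCN the summed member level had medians of 20150, 22800 and 26080 CPM in libraries numbered 1, 2 and 3, and in liver of 8563, 8727 and 7920 CPM. In liver 38 of 80 members were called lower in females, beside 4.27% of all genes, and 0 higher, with a median of -0.14. In SCN 61 of 79 were called higher in females, beside 4.91% of all genes, and 0 lower, with a median of 0.24. In the fit of all 72 libraries the term for the difference between the tissues was called for 69 members, all lower in liver than in SCN, beside 4.84% of all genes. In the separate fits 30 members were called for sex in both tissues, a count for which no share of all genes was taken.

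Rplp1 ran from 208.4 CPM over a median of 249.6 to 292.5 in the 24 male livers and from 197.3 over 219.9 to 248.0 in the 12 female livers, a log2 difference of -0.20 ± 0.04 (adjusted p = 0.000789). The sexes overlapped, with the highest female below the male median. In SCN it ran from 312.8 over 443.2 to 541.9 CPM in males and from 433.0 over 532.6 to 698.2 CPM in females, a difference of 0.28 ± 0.07 (adjusted p = 0.0111). Rps4l, a paralog of Rps4x, had the lowest value in liver (-0.51 ± 0.13, adjusted p = 0.0114) and was the 1 member below 0 in SCN (-0.11 ± 0.06, adjusted p = 0.287). The X-linked members were all below 0 in liver and above 0 in SCN, with Rpl39 at -0.17 ± 0.05 in liver and 0.38 ± 0.08 in SCN, Rpl10 at -0.16 ± 0.05 and 0.14 ± 0.06, Rpl36a at -0.07 ± 0.04 and 0.25 ± 0.06, and Rps4x at -0.09 ± 0.04 and 0.15 ± 0.05. Rpl39 passed in both tissues, Rpl10 in liver and Rpl36a in SCN. Rplp0 was lower in female livers (-0.18 ± 0.04, adjusted p = 0.0056) and higher in female SCN (0.19 ± 0.06, adjusted p = 0.0332).

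**Figure D4:**
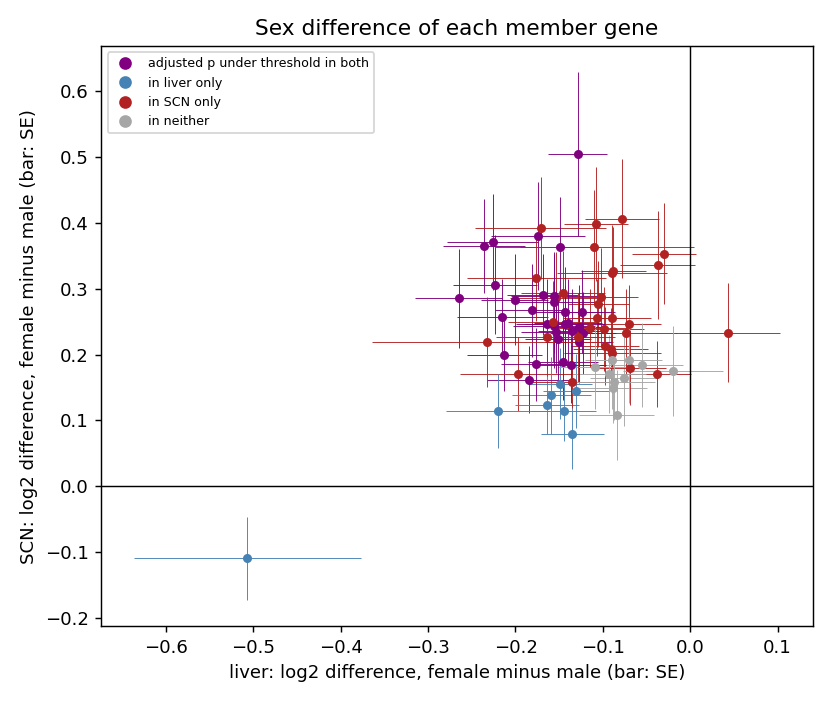
Log2 difference of each of 79 members, female minus male, in liver on the x axis and in SCN on the y axis; bars are standard errors and colours show in which tissue a member passed the test. All members but Rps28 lie left of 0, and all but Rps4l above 0.

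Both counts rest on which animals are compared. The SCN females were sequenced less deeply, 23.4 to 65.3 M counts against 27.5 to 79.8 M in males, and with the log2 library total as a term 0 SCN members were called (median 0.18, 53 at an unadjusted p under 0.05). With that term the share of all genes called in either direction went from 9.89% to 0.235%, and 78 of 79 members were above 0. In SCN number 2 minus number 1 of the males of a group was above 0 for 79 of 79 members with a median of 0.18, with 0 called by edgeR and 68 at an unadjusted p under 0.05. Without the males numbered 1 the sex count was 0, where 0.127% of all genes were called, with 78 of 79 members above 0, a median of 0.15 and 48 at an unadjusted p under 0.05. Without the MCD female of CT04 it was 30, where 4.89% of all genes were called. The count of 69 for the difference between the tissues was 17 without the males numbered 1 and 59 without those numbered 2, beside 0.945% and 3.25% of all genes lower. In liver the members stood at -0.13 relative to the median gene with library totals, beside -0.14 on the TMM scale. The liver count was then 5, all lower, beside 2.52% of all genes lower and 8.59% in either direction. It was 9 and 5 without the males numbered 1 and 2, with a median of -0.13 each time, 50 and 45 members at an unadjusted p under 0.05, and 3.25% and 4.1% of all genes called against 9.44% with all libraries. It was 23 without the control female of CT20 and 24 without the control female of CT16, beside 6.75% and 7.02%. Number 2 minus number 1 of the liver males gave 0 called, 1 at an unadjusted p under 0.05 and a median of 0.01. In SCN 2 of 6 ependyma and choroid markers, with summed medians of 174.7 CPM in males and 215.7 CPM in females, and 2 of 7 astrocyte markers, with 2664 and 2856 CPM, were higher in females, and 3 of 10 SCN neuron markers were lower and 1 higher. In liver, where 9.44% of all genes were called for sex, macrophage markers were higher in females for 3 of 10, with summed medians of 454.1 CPM in males and 612.5 CPM in females. Of 8 hepatocyte markers 3 were lower in females and 1 higher, with summed medians of 101000 and 111400 CPM. Their part in these differences was not tested.

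SCN members also moved together from library to library far more than liver members. After removing group and sex means, the median correlation between 2 members over the 36 libraries was 0.873 in SCN, where the first component held 85.8% of their variance, and 0.467 in liver, where it held 34.5%. For 78 mitochondrial ribosomal proteins the medians were 0.325 and 0.275. These values are descriptions, since all genes of a library share its depth and scaling.

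Between the tissues on control diet members differed in proportion. In the fit of all 72 libraries on the 14491 genes in both tables, with libraries treated as independent, 71 of 79 members were called (90.4% of all genes), 17 higher in liver (44.1%) and 54 lower (46.3%), and the median member stood at -0.32 where the median gene stood at -0.04. With library totals 4 were higher and 74 lower, beside 27.3% and 63.7% of all genes, and relative to the median gene the members stood at -0.27 under both. Rps27l, a paralog of Rps27 and a target of p53, had by far the largest excess in liver, 3.00 ± 0.06, and Rps27 itself was lower in liver (-1.29 ± 0.11). Per kilobase of exon, in each tissue's own fit, Rps27l stood at 155 ± 15.04 and Rps27 at 190.0 ± 37.4 CPM in control liver (SD, n = 18), a gap within the SD of Rps27. In control SCN they stood at 40.4 ± 6.28 and 1030 ± 240.5 CPM per kilobase, with Rps27 far above its paralog. Rplp0 (1.05 ± 0.05), Rpl22 (0.86 ± 0.06), Rpl10 (0.85 ± 0.06) and Rps2 (0.69 ± 0.06) followed, and with library totals Rps2 came out at -0.02.

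Rpl17 (-2.02 ± 0.07), Rpl23a (-1.95 ± 0.11), Rpl21 (-1.79 ± 0.06) and Rps27a (-1.78 ± 0.08) had the largest deficits in liver, but these 4 depend on how reads were counted. Summing the deposited exon-bin counts of each gene gave -0.42 for Rpl17, -0.52 for Rpl23a, -0.87 for Rpl21 and -0.54 for Rps27a, whereas Rps27 (-1.21), Rps27l (2.97), Rplp0 (1.07), Rpl22 (0.86) and Rpl10 (0.80) kept their values and Rps2 rose to 1.46. For Rpl17 the bin sums held 20.4% of the gene table's level in liver and 5.99% in SCN. Rpl7a, named here after its values were seen, went from -0.59 to 0.54. Members with many near-identical copies in the genome are uncertain in both tables, as are the 6 with an annotated exon overlap on their own strand. The strand setting of the counting is not stated in the labels, so the same holds for the 18 with one on the opposite strand, which include Rpl5, Rpl12, Rpl10a, Rpl30, Rps27a and Rps28.

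**Figure D5:**
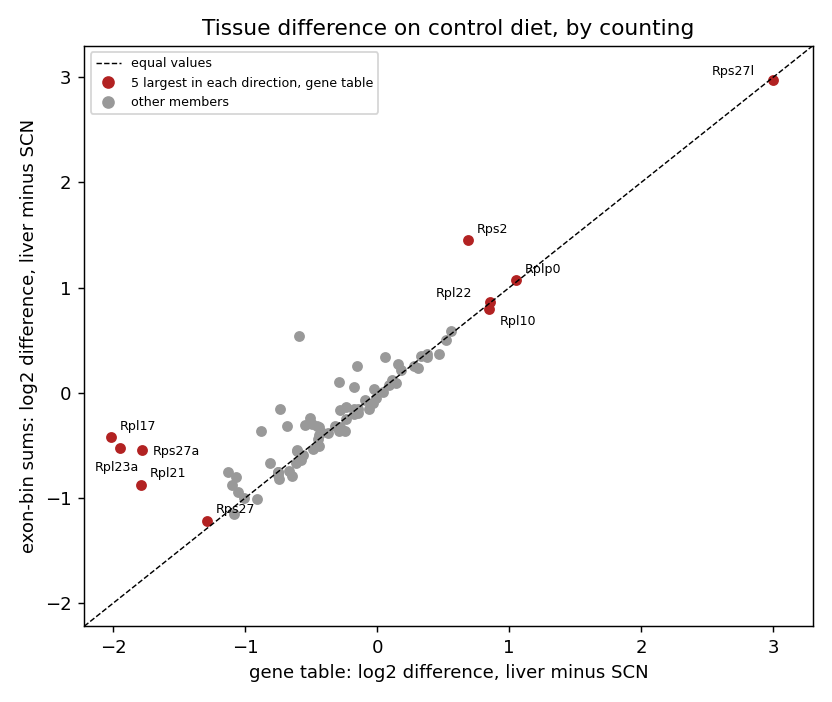
Log2 difference of each of 79 members between tissues on control diet, liver minus SCN, from the gene tables on the x axis and from sums of exon bins on the y axis; the dashed line marks equal values. Rpl17, Rpl23a, Rpl21 and Rps27a lie far above the line, at -0.42 to -0.87 on the y axis against -1.78 to -2.02 on the x axis.

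Exon usage within members was compared with the deposited exon-bin counts, in which a bin is a numbered stretch of exon whose coordinates are not used here. Between tissues on control diet 69 of 78 members were called for at least 1 bin that departed from the rest of its gene (edgeR's diffSpliceDGE, Simes p adjusted over 13476 genes), beside 70% of all genes. Rps24 had the lowest adjusted p (3.68e-42). It encodes a small subunit protein needed for 18S rRNA processing and is known for short alternative exons near its 3′ end that differ between tissues. Its bin 29 held 8.67% ± 0.770 of the gene's bin counts in control liver (SD, n = 16), with values of 7.33% to 10.5%, and 1.75% ± 0.629 in control SCN (n = 18), with values of 1.23% to 3.22%. The tissues did not overlap in bin 29, and bin 30 (4.29% ± 0.356 and 1.58% ± 0.408) and bin 31 (1.23% ± 0.231 and 0.214% ± 0.0824) were likewise higher in liver, while bin 28 was lower (0.209% ± 0.0768 and 1.18% ± 0.495). On MCD diet bin 29 was at 8.39% ± 0.763 in liver and 2.01% ± 0.673 in SCN.

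In Rps15a bin 2 held 1.54% ± 0.346 of the counts in control liver and 16.8% ± 2.53 in control SCN, with ranges of 0.816% to 2.06% and 12.0% to 22.0%. Rpl3 bin 17 was higher in liver (0.695% ± 0.20 against 0.081% ± 0.0421), Rps6 bin 11 as well (3.87% ± 0.297 against 1.53% ± 0.252), and Rpl36a bin 5 was lower (0.504% ± 0.121 against 2.26% ± 0.424). None of these 4 pairs of ranges overlapped.

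By diet in liver 14 of 77 members were called, beside 3.46% of 11694 genes, over the 34 libraries whose bin files run to the end. The count was 11, 8 and 7 without replicates 1, 2 and 3, beside 2.53%, 1.7% and 1.56% of all genes, and 11 with the mt-Nd6 kind as a term, beside 2.44%. The share of a liver file's counts that fell in no bin was 3.87% to 4.62% in the low kind and 9.96% to 14.2% in the high kind, with medians of 10.1% on control and 4.09% on MCD. Rpl5 led (adjusted p = 4.9e-18): its bin 21 held 1.86% ± 0.32 of the counts on control (SD, n = 16), from 1.26% to 2.66%, and 3.63% ± 0.618 on MCD (n = 18), from 1.93% to 4.49%, while in SCN it held 1.53% ± 0.193 and 1.45% ± 0.16. Rps24 was called as well (adjusted p = 1.12e-06), for bin 32, at 0.209% ± 0.0431 on control and 0.416% ± 0.121 on MCD. Rpl10a bin 20 went from 1.13% ± 0.33 to 1.69% ± 0.243. The leading bins of Rps7 (0.695% ± 0.619 and 0.292% ± 0.203), Rpl41 (0.981% ± 2.66 and 2.48% ± 3.73) and Rps19 (1.49% ± 2.50 and 0.723% ± 1.67) had an SD on control that exceeded the difference between the diets.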

How the data were processed

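The authors deposited raw counts per gene, 1 table a tissue, and raw counts per exon bin, 1 file a library. The submitters' processing notes name Trimmomatic, HISAT2, StringTie and DESeq2 and the build GRCm39, with no versions or roles. Neither the counting tool nor its strand setting is stated there. Counts were tested as deposited with edgeR 4.0.16 in R 4.3.3 (TMM factors, filterByExpr with a minimum count of 10, robust quasi-likelihood fit), 1 fit of 36 libraries a tissue with 12 groups of diet and time plus sex, and 1 fit of all 72 libraries for tissue contrasts. Rhythm was the cosine and sine of 24 h over the group means. A call is a Benjamini-Hochberg adjusted p under 0.05 over all genes tested. Levels are CPM on the TMM scale. Of the liver exon files 2 end early and were left out. Gene positions and exon lengths come from GENCODE on GRCm38 and start windows from RefSeq, matched by symbol or gene ID.

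Named genes were the 6 largest changes in each direction for diet, the 6 lowest adjusted p for rhythm and exon usage, the 5 largest in each direction between tissues and per exon length, members under 10 CPM, the stalk, X-linked and paralog genes, and the 4 largest called changes of each list. The members and the gene lists were chosen with earlier results of these data known. The fits were also run on simulated counts, with diet and rhythm changes larger than those of the members and no shared movement of genes. That outcome is not given here and backs none of the results. Every pair of libraries within a group differed by more than sampling noise (lowest chi-square per degree of freedom 29.3 in liver and 24.1 in SCN). Alternatives were library totals, no count filter, limma voom, DESeq2, a replicate block, the kind of liver library, and leaving out each replicate or library. Exon-bin sums, single-library refits beyond the planned ones and the library total as a term were chosen after seeing the data. Some genes that the rule names are not reported here.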

Additional observations from a re-analysis of the deposited data

Results flagged for a closer look

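The sex difference of 69 members differed between liver and SCN by the test of the difference itself, all lower in liver, beside 4.84% of all genes in that direction. Every female carries replicate number 3, so sex and number cannot be told apart. The count was 17 without the males numbered 1 and 59 without those numbered 2, beside 0.945% and 3.25% of all genes lower, and the SCN sex count alone was 0 without the males numbered 1 or with the library total as a term. The diet effect of 16 of 79 members was lower in liver than in SCN by the same kind of test, beside 15.8% of all genes lower and 18.9% higher, a share near that of all genes. With a replicate block the count was 27, beside 15.3% of all genes lower and 19.5% higher. Without replicates 1, 2 and 3 it was 14, 6 and 6, beside 20.3%, 21.9% and 30.3% of all genes in either direction. The 24 h rhythm differed between diets for 14 liver members, beside 4.87% of all genes. It differed for 0 with library totals or with a replicate block, and for 3 to 29 as single libraries were left out. Counts listed under ribosomal pseudogene symbols, which no comparison used, reached 0.321% of a liver library, in MCD male 2 of CT12, where control livers held 0.189% to 0.223%. In SCN they reached 0.689%, in the MCD female of CT04, where control libraries held 0.365% to 0.637%. The same 2 libraries had the highest member share of their tissue, 1.31% and 3.22%.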

How the results depend on the processing

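The directions of the liver diet result and of the diet effect between tissues follow the scaling, and most counts follow which of 3 animals a group are used. With library totals the median liver member moved from -0.07 to 0.19, 56 members were called higher and 0 lower, CT16 and CT20 had 0, a rhythm difference 0 and sex 5; Rpl30, Rpl36a, Rpl7 and Rps27a came out at 0.011, 0.01, 0.019 and 0.032, and Rps2 between tissues at -0.022. Leaving out replicates 1, 2 or 3 gave 24 to 32 liver members for diet (3 to 7 higher, 20 to 25 lower), 1 to 5 at CT16, 0 to 24 at CT20, 0 to 10 for rhythm on control, 11 to 46 on MCD, 0 to 11 for the difference and 5 to 9 for sex. In SCN it gave 0 to 1 for rhythm on either diet and 0 to 56 for sex. Between tissues it gave 6 to 14 for the diet effect (20.3% to 30.3% of all genes) and 17 to 59 for sex (2.64% and 7.27%). For liver exon usage it gave 7 to 11 (1.56% to 2.53%). The share of all genes also fell with fewer samples, for liver sex from 9.44% to 3.25% and 4.1%. Counts in this section with no share beside them thus do not show whether members moved more than other genes. Leaving out 1 library at a time gave 38 to 50 liver members for diet, 54 to 68 for rhythm on MCD, 1 to 4 for liver rhythm on control, 3 to 29 for the difference, 23 to 52 for sex, 6 to 26 at CT16, 6 to 38 at CT20, and in SCN 1 to 9, 0 to 4 and 30 to 74 for rhythm on control, on MCD and sex. Within the low kind of liver library 8 members were called for diet (3 higher, 5 lower) and within the high kind 11 (0 higher, 11 lower), from fewer samples; with the kind as a term 2 were rhythmic on control, and without the deep control male of CT08 3. DESeq2 gave 6 for rhythm on control and 43 for the difference, with the shares of all genes given above, and 8 for SCN rhythm on control. For diet it gave 11 members lower at CT00, 34 lower at CT16 and 43 lower at CT20, beside 7.98%, 9.76% and 8.63% of all genes lower. At CT08 it gave 3 higher, beside 1.42% of all genes higher. Exon-bin sums gave 0, 1 and 21 for liver rhythm on control, rhythm difference and sex, 2 and 1 for SCN rhythm on control and MCD, and 6 for the diet effect between tissues. The share of all genes under exon-bin sums is not given here, so these counts cannot be set against it. The library total as a term gave 0 for SCN sex. The cause was not tested beyond the smaller samples. Same-numbered libraries of the diets were correlated over 0.1 in 13 of 16 pairs in liver (0.07 to 0.43) and 8 of 16 in SCN (-0.086 to 0.284). All liver values were above 0, so whether the numbers pair the mice is not settled. A replicate block, fitted without the unnumbered control males of CT08, gave 2 and 0 for liver rhythm on control and difference. It gave 2 for SCN rhythm on control and 27 for the diet effect between tissues, the latter beside 34.8% of all genes. It took the liver count at CT08 from 1 to 0 (member median 0.10 to -0.04), and changed no other count given here by over 1.5 times. In the gene tables counts were low for Rpl32l, at 21 to 66 in a liver library. Depth also differed between the sexes in SCN, where the library total as a term gave 0 for sex. Exon bins with a small share of their gene rest on few counts too.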
